A study of Mus musculus with 16 samples.

Results

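Activated mouse hepatic stellate cells, reached by 4 different routes, were compared with quiescent stellate cells on 16 arrays, which are all the arrays of the series analysed here. The activated side held 11 arrays in 4 groups and the quiescent side held 5 arrays, each assigned by its title. Each route counted equally: the mean of the 4 activated group means was set against the quiescent mean, so a positive log2 difference means higher in activated cells and a difference of 1 is 2-fold. Within that comparison, particular attention went to the genes whose 11 activated arrays all lay on one side of the 5 quiescent arrays. They numbered 334 of the 7823 genes tested, with 181 above and 153 below.

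Hepatic stellate cells lie between the hepatocytes and the sinusoidal endothelium and store retinoids as retinyl esters in lipid droplets. After liver injury, or on plastic in serum, they turn into contractile, dividing, matrix-producing cells, a change called activation, and these cells are a main source of scar collagen in liver fibrosis. Culture on plastic is the usual laboratory model of this change, and bile duct ligation and carbon tetrachloride are the usual animal models, the first by obstructing bile flow and the second by killing hepatocytes.

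All cells came from male Balb/c mice aged 8 to 10 weeks and were purified by density centrifugation, followed by depletion of F4/80-positive cells, that is of macrophages. The culture group (3 arrays) had spent 5 days on plastic with 10% fetal bovine serum, and the coculture group (2 arrays) had done so with hepatic macrophages (Kupffer cells) behind a transwell membrane. The bile duct ligation group (3 arrays) came from mice ligated for 15 days and the CCl4 group (3 arrays) from mice given 4 intraperitoneal injections of carbon tetrachloride at 0.5 µl per g, and both were plated for 24 h before lysis. The quiescent group (5 arrays) came from normal mice and was also plated for 24 h, so in the culture and coculture groups the time in the dish and the activated state cannot be told apart. A further coculture sample that the design text counts was not analysed here. The labels leave unstated whether the arrays within a group represent different animals. The p-values therefore measure the spread between these arrays, which may be technical.

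The deposited values are log2 expression, 1 per probe set and array. Array medians lay between 2.00 and 2.06, and 6803 to 7037 genes per array reached log2 5, so values near 2 are the floor of these arrays and a difference that starts there depends on the background estimate. Over genes, arrays of the same group correlated at 0.929 to 0.983, and activated with quiescent arrays at 0.773 to 0.916. Quiescent array 4 had the lowest mean correlation with its own group, 0.937. Of 18 stellate lineage markers, 15 to 17 averaged at least log2 5 in each activated group and 16 in quiescent cells. Adgre1, which encodes F4/80, averaged 1.54 to 2.23 in the activated groups and 1.88 in quiescent cells.

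The activated average differed from quiescent cells in 2843 of the 7823 genes (36.3%) at an adjusted p under 0.05 in limma's moderated test. Of these, 1207 (15.4%) were higher and 1636 (20.9%) were lower, and 748 differed at least 2-fold. All 4 group means lay on the called side for 879 of the 1207 higher genes and for 1147 of the 1636 lower genes. The stricter description, no overlap between the 11 activated and the 5 quiescent arrays, held for 334 genes (4.27%), with 181 above (2.31%) and 153 below (1.96%), and all 334 were among the called genes. In 35 of them the gap between the nearest arrays was at least 1 log2 unit. Each gene was read from 1 probe set. For the genes without overlap named below, 52 other probe sets reached log2 5 on at least 2 arrays. Of these, 49 changed in the same direction and 30 also had no overlap. The 181 higher genes had a median difference of 1.83, and the 153 lower genes one of -0.85, whereas the median over all tested genes was -0.06. At the edge of this description stood Phax, just inside with a gap of 0.00207, and Slc25a20, just outside with a gap of -0.000473, and on the lower side Sp1 at -0.000413 and Sirpa at 0.00227. Without quiescent 4, culture 3 and CCl4 3, which were left out together as an alternative, 573 genes had no overlap.

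The 4 routes share the 5 quiescent arrays, so their calls are given side by side and are not independent of one another. Against quiescent cells, culture called 3291 genes (42.1%; 18.5% higher and 23.5% lower), coculture 3031 (38.7%; 17.8% and 20.9%), bile duct ligation 1319 (16.9%; 8.03% and 8.83%) and CCl4 1719 (22%; 9.51% and 12.5%). The dish average of culture and coculture called 3729 genes (47.7%; 21.5% higher and 26.2% lower). The in vivo average of the ligated and CCl4 groups, plated for 24 h like the quiescent cells, called 1991 (25.5%; 11.2% and 14.3%). Among the 181 genes above, the median difference was 1.48 in culture, 2.14 in coculture, 1.39 after bile duct ligation and 1.38 after CCl4. Among the 153 genes below, it was -0.77, -1.12, -0.76 and -0.81 in the same order of routes. The coculture mean was the farthest of the 4 from quiescent cells in 100 of the 181 higher and 90 of the 153 lower genes. The coculture mean was the nearest of the 4 in 18 of the 181 higher and 9 of the 153 lower genes. It rests on 2 arrays where the other routes have 3, so it is less precise. Whether the number of arrays affects its place among the routes was not tested.

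Cd200 showed the widest separation of any gene tested. It encodes a membrane glycoprotein that signals to an inhibitory receptor on myeloid cells. Its log2 values were 6.96, 6.97 and 6.63 in culture, 8.94 and 8.77 in coculture, 7.72, 8.65 and 7.57 after bile duct ligation, and 7.37, 6.87 and 7.02 after CCl4, against 1.21, 1.88, 2.16, 2.15 and 1.78 in quiescent cells. Every quiescent array sat near the floor and every activated array stood well above it, with a gap of 4.46. The difference was 5.86 ± 0.19 (SE; adjusted p = 3.62e-11). The quiescent level is at the floor, so the size of this difference depends on how the background was estimated.

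Lox, lysyl oxidase, which cross-links collagen and elastin outside the cell, came next among genes of the matrix. It read 10.32, 9.92 and 9.85 in culture, 10.32 and 11.14 in coculture, 10.12, 9.96 and 9.78 after bile duct ligation, and 9.07, 8.77 and 9.19 after CCl4, against 4.40, 4.98, 3.87, 5.05 and 3.53 in quiescent cells. The lowest activated array lay 3.72 above the highest quiescent one, and the difference was 5.57 ± 0.23 (SE; adjusted p = 2.50e-10). Col4a5, a chain of basement membrane collagen type IV, averaged 7.57 ± 0.01 in culture (SD, n = 3), 6.62 in coculture (n = 2), 5.02 ± 0.46 after bile duct ligation and 6.93 ± 0.35 after CCl4 (SD, n = 3 each), against 1.17 ± 0.23 in quiescent cells (SD, n = 5). Its groups did not overlap, and the routes differed among themselves (F test, adjusted p = 4.86e-05), with the ligated mice nearest to quiescent cells. The other collagen IV chains on the matrix list, Col4a1 and Col4a2, did not pass the test, at -0.18 and -0.20.

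The remaining genes of the 14 widest separations upward joined secretion, membrane and cell division. Cpe, carboxypeptidase E, a peptide-processing enzyme of the secretory pathway, had activated values of 5.80, 6.72 and 8.45 (lowest, median and highest), against 1.85, 1.33, 2.40, 2.22 and 2.22 in quiescent cells, a difference of 4.81 ± 0.23 (SE; adjusted p = 1.33e-09). Cavin2, a coat protein of caveolae, rose by 4.33 ± 0.33, Hs6st2, which adds sulfate to heparan sulfate chains, by 3.87 ± 0.27, and Fabp3, a carrier of fatty acids in the cytosol, by 2.74 ± 0.24. Cyp1b1, a cytochrome P450 that is a target of the aryl hydrocarbon receptor and can oxidise retinoids and steroids, had activated values of 8.14, 9.21 and 9.86, against 4.47, 4.16, 4.46, 5.43 and 6.23 in quiescent cells. The groups did not overlap, the difference was 4.05 ± 0.34 (SE; adjusted p = 5.94e-07), and the 4 activated means lay within 0.53 of each other. Cdk1, Birc5, Ube2c, Anln and Pbk, all genes of mitosis, complete the set together with Lyz1.

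**Figure D1:**
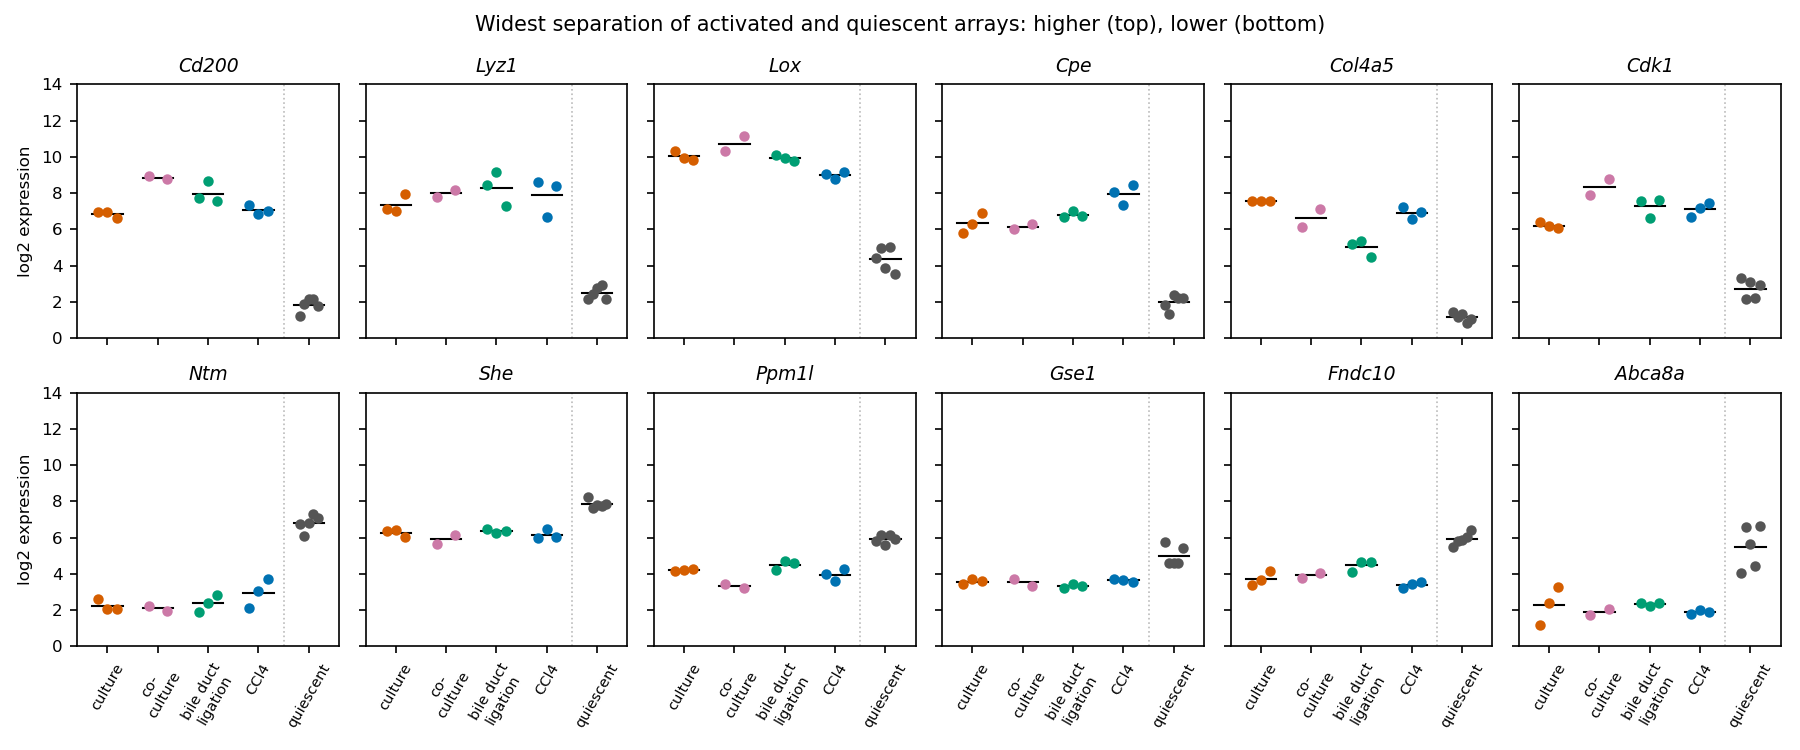
Log2 expression on each array for the 6 genes with the widest separation upward (top) and downward (bottom), each group in a column of its own with quiescent cells at the right. Points are arrays and bars are group means. In the Cd200 panel all 11 activated arrays lie at 6.63 or above and all 5 quiescent arrays at 2.16 or below, and in the Ntm panel the order is turned round.

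Lyz1 encodes lysozyme, an antibacterial enzyme of macrophages, neutrophils and some epithelia. It read 6.69, 7.98 and 9.16 over the activated arrays (lowest, median and highest), against 2.15, 2.41, 2.79, 2.96 and 2.14 in quiescent cells, a difference of 5.40 ± 0.33 (SE; adjusted p = 2.90e-08). Lyz2, its near-identical copy and the form of macrophages, differed by 3.44 ± 0.47 and also did not overlap. The probe sets can bind both transcripts, so which of the pair was measured is uncertain. Of 26 macrophage and Kupffer cell markers, 1 to 3 averaged at least log2 5 in each activated group and 1 in quiescent cells. Their summed level, which includes Lyz1 and Lyz2 themselves, on the log2 scale, ran from 8.03 to 8.56 in culture, 9.23 to 9.35 in coculture, 8.37 to 10.16 after bile duct ligation and 8.33 to 9.68 after CCl4, against 7.29 to 8.26 in quiescent cells. Ptprc, the leukocyte surface protein CD45, averaged 1.05 to 1.85 in the activated groups and 1.09 in quiescent cells, and C1qa, a complement subunit made by macrophages, 1.28 to 1.94 and 1.19. The part of other cells in the lysozyme signal was not tested.

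In the downward direction, Ntm stood alone. Neurotrimin, its product, is a lipid-anchored adhesion molecule of the immunoglobulin superfamily known from neurons. Its values were 2.63, 2.04 and 2.07 in culture, 2.23 and 1.95 in coculture, 1.92, 2.39 and 2.81 after bile duct ligation, and 2.11, 3.08 and 3.69 after CCl4, against 6.77, 6.09, 6.79, 7.32 and 7.11 in quiescent cells. The activated arrays were at or near the floor in every route, the gap was -2.39, and the difference was -4.40 ± 0.27 (SE; adjusted p = 2.90e-08). The 4 routes did not pass the F test for differing among themselves (adjusted p = 0.289).

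Abca8a, a lipid transporter of the ABC family, lay at 1.20, 2.09 and 3.25 over the activated arrays (lowest, median and highest), against 4.02, 6.57, 5.66, 4.45 and 6.62 in quiescent cells. The groups did not overlap although the quiescent arrays themselves spread widely, and the difference was -3.36 ± 0.42 (SE; adjusted p = 3.13e-05). Mapt, the microtubule-binding protein tau, differed by -3.14 ± 0.26. It averaged 5.62 in culture but 2.96 to 3.30 in the other routes, against 6.90 ± 0.46 in quiescent cells (SD, n = 5). Gja1, connexin 43, the main gap junction protein of stellate cells, was abundant on both sides, with activated values of 8.88, 10.00 and 10.70, against 11.49, 11.68, 11.29, 11.49 and 11.62 in quiescent cells. It fell by 1.58 ± 0.16 on the log2 scale (adjusted p = 3.45e-06) with no overlap, and culture lay lowest. Unlike Cd200 or Ntm, Gja1 was far from the floor in both states.

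The other genes of the 14 widest separations downward fell by 1.22 to 2.04 on the log2 scale. She, an adaptor protein with an SH2 domain, fell by 1.67 ± 0.13 on the log2 scale, Ppm1l, a serine/threonine phosphatase, by 1.91 ± 0.16, and Lpin2, which makes diacylglycerol from phosphatidate, by 1.22 ± 0.15. Xdh, xanthine dehydrogenase of purine breakdown, averaged 9.02 to 9.37 in the 4 activated groups, against 10.48 ± 0.20 in quiescent cells (SD, n = 5). Txnrd3, a thioredoxin reductase, fell by 1.51 ± 0.14, Olfm1, a secreted glycoprotein, by 1.54 ± 0.21, and Ramp2, the partner of the adrenomedullin receptor, by 2.04 ± 0.21. Another Olfm1 probe set differed by -0.99 and overlapped. Gse1, Fndc10 and Samd5 differed by -1.47, -2.03 and -1.94, also without overlap.

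Among the 21 lists of gene roles, the cell cycle list had the largest share of called members, 78.6%. Of its 28 tested genes, 21 were higher in activated cells and 1 was lower, and 11 had no overlap, against 15.4%, 20.9% and 4.27% of all tested genes. Its median difference was 1.68. These genes drive DNA replication and mitosis. The list and its earlier results on these data were known when it was used here. Of its 43 measured members, 28 reached log2 5 on at least 2 arrays and were tested. Cdk1, Birc5, Ube2c and Top2a lay below log2 5 on every quiescent array and passed this filter through activated arrays. The shares above therefore depend in part on the filter.

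Cdk1, the kinase that drives entry into mitosis, read 6.39, 6.19 and 6.06 in culture, 7.91 and 8.79 in coculture, 7.56, 6.65 and 7.61 after bile duct ligation, and 6.69, 7.18 and 7.46 after CCl4, against 3.30, 2.16, 3.12, 2.19 and 2.91 in quiescent cells. No array of the activated groups came within 2.76 of the highest quiescent array, and the difference was 4.50 ± 0.24 (SE; adjusted p = 5.96e-09). Birc5 (survivin, of the chromosomal passenger complex) differed by 4.09 ± 0.25, Ube2c (the ubiquitin-conjugating enzyme of the anaphase-promoting complex) by 4.05 ± 0.33, and Top2a (the DNA topoisomerase of dividing cells) by 3.87 ± 0.28. Outside the list, Anln, the cytokinesis scaffold anillin, differed by 3.99 ± 0.28 and Pbk, a mitotic kinase, by 3.07 ± 0.29, again with no overlap. In Cdk1, Birc5, Ube2c and Top2a the culture mean was the nearest of the 4 to quiescent cells. Top2a averaged 4.08 ± 0.30 in culture, 6.69 in coculture, 6.16 ± 0.70 after bile duct ligation and 6.17 ± 0.53 after CCl4, against 1.90 ± 0.35 in quiescent cells (SD).

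Not all of the machinery moved alike. Of the 6 replicative helicase subunits on the list, Mcm3, Mcm4, Mcm5, Mcm6 and Mcm7 were called higher, at 0.34 to 1.24, and Mcm2 was not called, at -0.23. Ccnd1, cyclin D1, which acts in the first gap phase, was the 1 member called lower, at -1.14 ± 0.22 (SE). The cell cycle inhibitors Cdkn1a and Cdkn1b did not pass the test, at -0.35 and -0.30. By route, the called members numbered 14 higher and 6 lower in culture, 22 and 1 in coculture, 21 and 1 after bile duct ligation, and 20 and 0 after CCl4. Of all tested genes, these routes called 18.5% higher and 23.5% lower, 17.8% and 20.9%, 8.03% and 8.83%, and 9.51% and 12.5%. In the in vivo average, matched to quiescent cells for 24 h of plating, 19 were higher and 1 lower, against 11.2% and 14.3% of all tested genes.

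**Figure D2:**
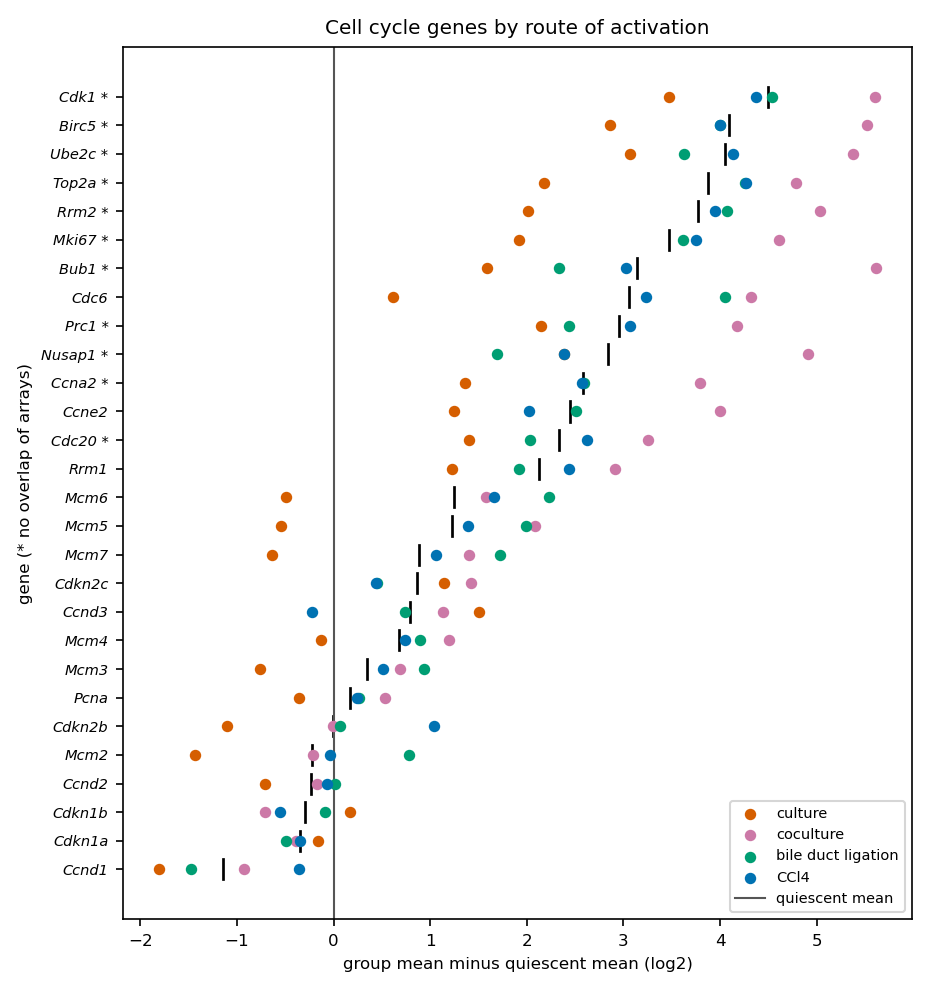
Difference of each activated group mean from the quiescent mean (log2) for the 28 tested cell cycle genes, sorted by the mean of the 4 routes, which the black ticks mark. Asterisks mark genes with no overlap of arrays. For Cdk1, Birc5, Ube2c and Top2a culture lies to the left of the other routes, whereas the averages of Ccnd1, Ccnd2, Cdkn1a, Cdkn1b and Mcm2 lie below 0.

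The promoters of such genes are known to carry CCAAT boxes, bound by NF-Y, and the element TTTGAA, the cell cycle genes homology region through which the DREAM complex represses them in resting cells. Cdk1, Ube2c and Top2a are shown because they lie among the mitotic genes that separated activated from quiescent arrays, and their windows hold both motifs. The windows run from 250 bases before to 50 after the annotated start and come from RefSeq on GRCm38.p6, at chr10:69352863-69353162 (minus strand), chr2:164769679-164769978 (plus strand) and chr11:99024140-99024439 (minus strand), each written 5′ to 3′ on the gene's strand. Capitals mark CCAAT and TTTGAA on either strand, which read ATTGG and TTCAAA on the opposite one.
Cdk1: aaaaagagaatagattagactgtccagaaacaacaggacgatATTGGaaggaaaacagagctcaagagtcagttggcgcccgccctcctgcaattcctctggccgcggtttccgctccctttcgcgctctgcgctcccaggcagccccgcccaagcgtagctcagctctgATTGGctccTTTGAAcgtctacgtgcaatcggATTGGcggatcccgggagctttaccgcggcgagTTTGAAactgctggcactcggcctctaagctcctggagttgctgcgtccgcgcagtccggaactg
Ube2c: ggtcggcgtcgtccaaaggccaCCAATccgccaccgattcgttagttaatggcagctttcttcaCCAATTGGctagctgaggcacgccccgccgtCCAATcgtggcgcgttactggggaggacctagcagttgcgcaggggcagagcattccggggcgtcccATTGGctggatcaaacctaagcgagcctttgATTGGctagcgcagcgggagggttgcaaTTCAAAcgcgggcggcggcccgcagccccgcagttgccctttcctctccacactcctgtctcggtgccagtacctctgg
Top2a: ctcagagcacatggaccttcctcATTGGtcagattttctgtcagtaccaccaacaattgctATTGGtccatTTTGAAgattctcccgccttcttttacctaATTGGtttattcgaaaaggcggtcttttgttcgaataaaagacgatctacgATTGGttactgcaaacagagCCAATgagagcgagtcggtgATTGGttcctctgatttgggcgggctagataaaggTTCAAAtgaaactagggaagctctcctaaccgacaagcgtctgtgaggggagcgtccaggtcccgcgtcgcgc
Of the 11 cell cycle genes with no overlap, 10 had a promoter in the RefSeq table. CCAAT occurred in 8 of the 10 (80%) and in 38.1% of the promoters of 6416 tested genes, and TTTGAA in 6 of the 10 (60%) and in 11.1%. Among all tested cell cycle genes, moved or not, 16 of 23 held CCAAT and 8 of 23 held TTTGAA. These motifs were picked after the genes' values were seen, and a match in a window is not evidence of binding.

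Of 29 tested contractile and cytoskeletal genes, 9 were higher (31%) and 2 were lower (6.9%), against 15.4% and 20.9% of all tested genes. The total called, 37.9%, was close to the 36.3% of all genes. Actg2, Acta2, Tpm2 and Myl9 had no overlap, all upward, as against 4.27% of all tested genes without overlap in either direction. Acta2, smooth muscle α-actin, the customary marker of stellate cell activation, read 13.12, 12.89 and 12.42 in culture, 12.63 and 12.18 in coculture, 13.10, 12.98 and 13.13 after bile duct ligation, and 12.77, 13.09 and 12.95 after CCl4, against 11.20, 11.56, 12.00, 11.20 and 11.82 in quiescent cells. It was already bright in quiescent cells plated for 24 h, the groups were separated by 0.18, and the difference was 1.25 ± 0.14 (SE; adjusted p = 1.01e-05). Actg2, the γ-actin of visceral smooth muscle, rose by 3.57 ± 0.29 and averaged 6.03 in culture, 6.34 in coculture, 8.88 after bile duct ligation and 7.86 after CCl4, against 3.71 ± 0.53 in quiescent cells (SD, n = 5).

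Tpm2 (β-tropomyosin) and Myl9 (the regulatory light chain of smooth muscle myosin) differed by 1.36 ± 0.19 and 1.38 ± 0.20. Neither differed among the routes by the F test (adjusted p = 0.511 and 0.468). Myl9 is shown because it is the gene with no overlap on this list whose window holds a CArG box, the binding site of serum response factor, in capitals, at chr2:156775214-156775513 on the plus strand (RefSeq, GRCm38.p6).
Myl9: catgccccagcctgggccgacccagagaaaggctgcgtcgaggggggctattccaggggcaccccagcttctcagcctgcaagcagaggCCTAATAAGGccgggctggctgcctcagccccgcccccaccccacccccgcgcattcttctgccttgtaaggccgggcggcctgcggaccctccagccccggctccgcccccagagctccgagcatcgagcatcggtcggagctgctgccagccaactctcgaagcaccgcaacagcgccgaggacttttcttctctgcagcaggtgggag
CArG boxes occurred in the windows of 3 of 26 contractile genes (11.5%) and of 1.31% of all tested genes. Desmin (Des), an intermediate filament and stellate cell marker, did not pass the test, at -0.11 ± 0.21, and neither did Tagln (transgelin), at 0.09. Filamin A (Flna) and vimentin (Vim) were called lower, at -0.67 and -0.25. The in vivo average called 13 of the 29 higher and 0 lower, against 11.2% and 14.3% of all tested genes. The dish average called 5 higher and 7 lower, close to its shares of 21.5% and 26.2% of all tested genes.

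Extracellular matrix genes rose more often than they fell: of 33 tested, 16 were called higher (48.5%) and 2 lower (6.06%), and 4 had no overlap (Col4a5, Thbs2, Col1a2 and Col5a2). The shares of all tested genes were 15.4%, 20.9% and 4.27%. Col1a2, the α2 chain of type I collagen, read 9.59, 9.80 and 10.23 in culture, 10.33 and 11.31 in coculture, 11.94, 12.28 and 12.21 after bile duct ligation, and 11.87, 11.45 and 11.17 after CCl4, against 8.92, 8.67, 8.95, 8.07 and 9.12 in quiescent cells. The routes were ordered with culture lowest and the ligated mice highest (F test, adjusted p = 8.06e-05), and the difference was 2.34 ± 0.19 (SE; adjusted p = 4.37e-07). Its partner chain Col1a1 rose by 2.45 ± 0.28, but coculture 2, at 8.79, and culture 2, at 8.88, lay below quiescent 1 and thus overlapped.

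Thbs2, thrombospondin 2, a matricellular protein that binds metalloproteinases, rose by 3.62 ± 0.42 and was highest in culture, at 9.69, against 4.78 ± 0.87 in quiescent cells (SD, n = 5). On its other probe sets, which overlapped, it rose by 2.06 and 2.16. Col5a2, of the fibril-organising type V collagen, rose by 1.08 ± 0.09 with no overlap, and its quiescent level was already 11.25 ± 0.16 (SD, n = 5). Col3a1, the main chain of type III collagen, averaged 12.94 after bile duct ligation and 12.05 to 12.23 in the other routes, against 11.10 ± 1.10 in quiescent cells (SD, n = 5), and overlapped. Its difference was 1.25 ± 0.36 (SE; adjusted p = 0.0141), and the call was lost without the ligated group (1.06, adjusted p = 0.0558) and with a replicate block (0.80, adjusted p = 0.0971). Col6a3 and Lamc1, chains of microfibrillar collagen and of laminin, were the members called lower, at -1.62 and -0.57. Summed markers of mesothelial cells and portal fibroblasts, a list that shares Fbln2 with the matrix list, were at log2 6.27 to 6.48 in culture, 7.63 to 8.02 in coculture, 8.997 to 9.50 after bile duct ligation and 9.14 to 10.14 after CCl4, against 6.29 to 6.76 in quiescent cells. Their part in the matrix and contractile genes was not tested.

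**Figure D3:**
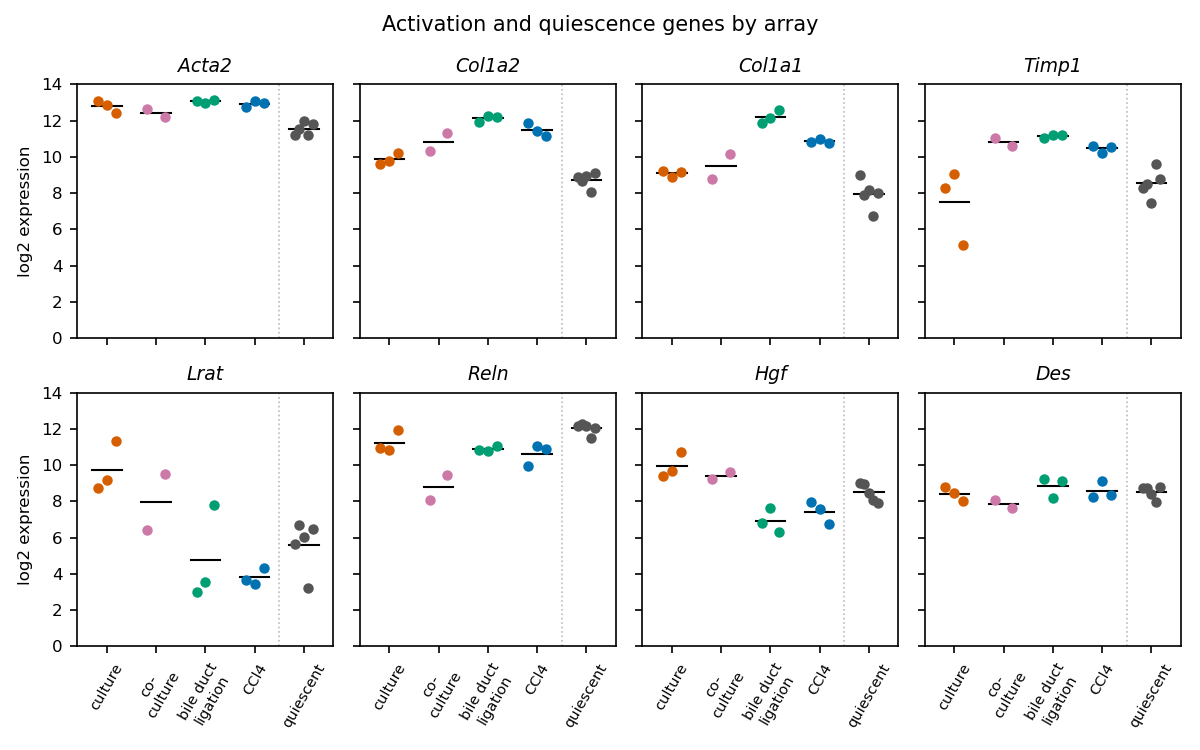
Log2 expression on each array for 4 genes of activation (top) and for 4 genes associated with quiescent stellate cells or their identity (bottom), with quiescent cells at the right of each panel. Points are arrays and bars are group means. Acta2 and Col1a2 show no overlap with quiescent cells, Col1a1 and Timp1 do overlap, and Lrat and Hgf lie on different sides of the quiescent mean in different routes.

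Enzymes that process and remodel matrix were mixed. Of 18 tested genes of collagen processing, 5 were higher (27.8%) and 4 lower (22.2%), and Lox was the 1 gene with no overlap. Matrix proteases and their inhibitors gave 11 higher (50%) and 2 lower (9.09%) calls among 22 tested genes, and Mmp23 and Adamts5 had no overlap. Of all tested genes, 15.4% were higher, 20.9% lower and 4.27% without overlap. Mmp23, a membrane-anchored metalloproteinase, averaged 4.61 to 4.85 in the 4 activated groups, against 2.67 ± 0.25 in quiescent cells (SD, n = 5), a difference of 2.04 ± 0.36. Adamts5, an aggrecanase, averaged 9.96 in culture, 7.37 in coculture, 6.65 after bile duct ligation and 5.90 after CCl4, against 4.93 ± 0.73 in quiescent cells. Its difference was 2.54 ± 0.25, and in CCl4 alone it did not pass the test (adjusted p = 0.0544). Other Adamts5 probe sets that reached log2 5 on at least 2 arrays differed by 2.60 and 2.08 and overlapped.

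Timp1, the tissue inhibitor of metalloproteinases that is a classical product of activated stellate cells, differed by 1.45 ± 0.47 (SE; adjusted p = 0.0238), with overlap. It read 8.29, 9.07 and 5.16 in culture, 11.05 and 10.58 in coculture, 11.05, 11.24 and 11.23 after bile duct ligation, and 10.61, 10.24 and 10.57 after CCl4, against 8.28, 8.53, 7.48, 9.62 and 8.78 in quiescent cells. The culture mean lay below the quiescent mean and the other 3 group means lay above it. The call was lost without the coculture, ligated or CCl4 group (adjusted p = 0.0924, 0.129 and 0.0752) and without quiescent 1 or quiescent 3 (adjusted p = 0.0552 and 0.0729). Mmp2, gelatinase A, did not pass the test, at -0.37 ± 0.22.

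Genes linked to quiescence and retinoid storage fell more often than they rose, with 13 of 28 tested lower (46.4%) and 3 higher (10.7%), and 3 of the 13 had no overlap. Of all tested genes, 20.9% were lower, 15.4% higher and 4.27% without overlap. Vipr1, the receptor of vasoactive intestinal peptide, read 2.14, 2.80 and 3.93 over the activated arrays (lowest, median and highest), against 5.34, 5.28, 5.91, 4.47 and 6.07 in quiescent cells. Its activated means lay within 0.70 of each other and its difference was -2.62 ± 0.31 (SE; adjusted p = 1.94e-05). Pth1r, the parathyroid hormone receptor, and Ecm1, extracellular matrix protein 1, differed by -1.65 ± 0.19 and -1.82 ± 0.17 without overlap, with high quiescent levels of 8.95 ± 0.36 and 12.07 ± 0.17 (SD, n = 5).

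Reln, reelin, a secreted glycoprotein that marks stellate cells in the liver, was lower at -1.64 ± 0.23, but culture 3, at 11.93, overlapped with quiescent 4, at 11.52. Cygb (cytoglobin) and Rgs5 (a regulator of G protein signalling) were lower at -2.11 and -1.56. Among the transcription factors of the list, Gata4, Lhx2, Ets1 and Ets2 were called lower and Tcf21 higher, at 0.53. Rarb and Dhrs3, a retinoic acid receptor and a retinal reductase, were higher at 1.67 and 2.28, and both are known targets of retinoic acid.

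Lrat, which esterifies retinol for storage, did not have a common direction. It read 8.73, 9.17 and 11.36 in culture, 6.44 and 9.53 in coculture, 3.02, 3.54 and 7.77 after bile duct ligation, and 3.65, 3.44 and 4.32 after CCl4, against 5.63, 6.70, 6.02, 3.22 and 6.50 in quiescent cells. The average did not pass the test, at 0.96 ± 0.77 (SE; adjusted p = 0.346), while culture was higher (adjusted p = 0.00515) and the injury groups were not called. Over the whole list, culture called 8 members higher and 7 lower, coculture 3 and 12, bile duct ligation 1 and 12, and CCl4 1 and 13. Of all tested genes, these routes called 18.5% higher and 23.5% lower, 17.8% and 20.9%, 8.03% and 8.83%, and 9.51% and 12.5%. The difference between routes was not tested for the list. Bulk arrays cannot tell fewer cells of a type from less RNA per cell.

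In TGF-β and BMP signalling, 11 of 36 tested genes were lower (30.6%) and 5 higher (13.9%), against 20.9% and 15.4% of all tested genes. TGF-β is the main fibrogenic cytokine of the liver, and Tgfb1 itself was called lower, at -0.83 ± 0.24 (SE; adjusted p = 0.013), with overlap, and its call was lost with a replicate block. Tgfb2, another ligand, was higher at 1.83. Among the other ligands, Bmp2 averaged 6.95 to 8.03 in the activated groups, against 9.16 ± 0.15 in quiescent cells (SD, n = 5), with a difference of -1.63 ± 0.22 and no overlap, and Bmp5 and Gdf10 were lower at -1.69 and -3.26. Tgfbr3, the coreceptor betaglycan, differed by -1.48 ± 0.20, and Ltbp4, which holds latent TGF-β in the matrix, by -2.23 ± 0.28, both without overlap. Grem1, a secreted BMP antagonist, lay above quiescent cells on all 11 arrays by a margin of 0.01: it averaged 2.65 in culture, 7.54 in coculture, 5.96 after bile duct ligation and 5.39 after CCl4, against 1.98 ± 0.27 in quiescent cells (SD, n = 5).

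Growth factor genes went both ways, with 9 of 26 tested higher (34.6%) and 9 lower (34.6%), against 15.4% and 20.9% of all tested genes. Met, the receptor of hepatocyte growth factor, was higher at 2.06, Vegfa at 1.59 and Pdgfd at 1.94, while Vegfb, a relative of Vegfa, averaged 6.11 to 6.55 in the activated groups, against 7.41 ± 0.19 in quiescent cells (SD, n = 5), without overlap. Pdgfrb, the receptor of the main mitogen of stellate cells, differed by -0.48 ± 0.13 (SE; adjusted p = 0.00845), a call lost without the CCl4 group (-0.31, adjusted p = 0.0619). Notch1, a cell-contact receptor, fell by 1.57 ± 0.21 on the log2 scale without overlap. Of 20 tested Wnt, Hedgehog and Notch genes, 6 were lower (30%), Notch1 among them, and 2 higher (10%). Hgf did not pass the test on the probe set used, at -0.06 ± 0.27. Its in vivo average lay below quiescent cells (-1.31) and its dish average above them (1.19). The YAP target Ccn2 (connective tissue growth factor) was bright in all groups and did not pass, at 0.37 ± 0.21. Of 19 tested YAP and TAZ targets, 6 were higher (31.6%) and 4 lower (21.1%).

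Immediate early genes and MAP kinase feedback genes made up the 1 list among the 21 role lists with no member called higher: 13 of 38 tested were lower and 0 higher, against 20.9% and 15.4% of all tested genes. The Krüppel-like transcription factors Klf2, Klf4 and Klf10 had no overlap, as against 4.27% of all tested genes without overlap. Klf2 read 7.25, 8.47 and 9.11 over the activated arrays (lowest, median and highest), against 9.78, 9.79, 9.41, 9.58 and 10.32 in quiescent cells, and differed by -1.51 ± 0.14 (SE; adjusted p = 1.35e-06). Klf10, induced by TGF-β, differed by -1.50 ± 0.19 and Klf4 by -1.29 ± 0.15. Fosb, Egr3 and Dusp5 were called lower at -2.54, -2.99 and -1.86, whereas Fos, Jun and Egr1, at -0.67, -0.61 and -0.75, did not pass. The dish average called 15 of the 38 lower, against 26.2% of all tested genes, and the in vivo average 6, near its share of 14.3% of all genes. Without quiescent 4, culture 3 and CCl4 3, the activated average called 10 lower and 3 higher.

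In oxidative defence, 17 of 43 tested genes were lower (39.5%) and 8 higher (18.6%), against 20.9% and 15.4% of all tested genes. Gstp1, a glutathione S-transferase, was 11.10, 11.17 and 11.28 in culture, 11.22 and 11.24 in coculture, 12.24, 12.25 and 12.30 after bile duct ligation, and 12.10, 12.24 and 12.44 after CCl4, against 12.76, 12.60, 12.78, 12.80 and 12.73 in quiescent cells. Arrays agreed closely within each group, the dish groups lay lower than the injury groups, and none overlapped with quiescent cells (a reduction of about 2-fold, SE 0.06 on the log2 scale; adjusted p = 2.56e-08). Nqo1, Srxn1, Gclc and Gclm, known targets of the antioxidant factor NRF2, were called lower at -1.75, -1.94, -1.36 and -0.91. Gpx8, a peroxidase of the endoplasmic reticulum, was higher at 0.75 ± 0.11 without overlap. The dish average called 18 of the 43 lower, where it called 26.2% of all tested genes lower, and the in vivo average called 7 lower, near its share of 14.3% of all genes.

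Glycolysis and hypoxia genes were higher in 14 of 23 tested (60.9%) and lower in 3 (13%), against 15.4% and 20.9% of all tested genes. Called higher were 8 in culture, 14 in coculture, 5 after bile duct ligation and 7 after CCl4, with 16 in the dish average and 6 in the in vivo average. The shares of all tested genes called higher were, in the same order, 18.5%, 17.8%, 8.03%, 9.51%, 21.5% and 11.2%. Bnip3, a mitochondrial protein induced by hypoxia, averaged 8.49 in culture, 9.59 in coculture, 6.72 after bile duct ligation and 6.84 after CCl4, against 5.79 ± 0.21 in quiescent cells (SD, n = 5), and rose by 2.12 ± 0.15 without overlap. Slc16a3, the lactate exporter MCT4, rose by 1.65 ± 0.26, and was highest in coculture at 5.58, against 2.27 to 2.75 in the other routes and 1.64 ± 0.24 in quiescent cells. Only the coculture arrays of Slc16a3 reached log2 5, so it entered the test through that group. Its call was lost with the activated arrays as 1 group (adjusted p = 0.129). Hk2, the first enzyme of glycolysis, was higher at 2.65. Genes of cholesterol and fatty acid synthesis went the other way, with 8 of 21 lower (38.1%) and 2 higher (9.52%). Srebf2, the master regulator of sterol synthesis, had no overlap on the probe set used (-1.43 ± 0.29), with a gap of -0.02. Another Srebf2 probe set differed by -0.65 and overlapped. Lipid storage and oxidation genes gave 6 higher (28.6%) and 4 lower (19%) of 21. Acsl4, which activates polyunsaturated fatty acids, averaged 9.69 to 9.90 in the 4 activated groups, against 10.42 ± 0.23 in quiescent cells.

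Among inflammatory genes, Saa3 and Lcn2, acute phase proteins, were called higher at 5.07 ± 0.48 and 3.17 ± 0.39 but overlapped with quiescent cells. Lcn2 read 3.09, 3.84 and 2.04 in culture, 12.23 and 11.84 in coculture, 9.13, 9.64 and 9.37 after bile duct ligation, and 6.67, 7.53 and 8.62 after CCl4, against 3.82, 4.47, 5.07, 4.39 and 6.42 in quiescent cells. The culture mean lay below the quiescent mean while the other 3 group means lay above it. Of 20 tested NF-κB targets, 6 were higher (30%) and 1 lower (5%), against 15.4% and 20.9% of all tested genes. Of 29 tested interferon response genes, 3 were higher (10.3%) and 1 lower (3.45%). By route, 10 were higher and 0 lower in culture, 11 and 1 in coculture, 0 and 8 after bile duct ligation, and 0 and 2 after CCl4. Of all tested genes, these routes called 18.5% higher and 23.5% lower, 17.8% and 20.9%, 8.03% and 8.83%, and 9.51% and 12.5%. The F test called 22 of the 29, against 53.2% of all tested genes. Among 19 tested chemokines and cytokines, 6 were higher (31.6%) and 4 lower (21.1%). Of all tested genes, 4.27% were without overlap. The 2 chemokine and cytokine genes without overlap both fell: Cxcl12, the stromal chemokine SDF-1, at -0.66 ± 0.13, and Il1r1, the interleukin-1 receptor, at -1.29 ± 0.22. Ccl2, a monocyte attractant, was called at 1.18 ± 0.33, but not without coculture (0.69, adjusted p = 0.147).

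Protein folding and adhesion genes complete the lists. Of 24 tested genes of endoplasmic reticulum stress, 11 were higher (45.8%) and 2 lower (8.33%), against 15.4% and 20.9% of all tested genes, and none was without overlap. Ero1a, an oxidase of disulfide formation, and Creld2 differed by 1.03 ± 0.16 and 0.69 ± 0.15. Both calls were lost with the activated arrays as 1 group (adjusted p = 0.0916 and 0.131). Creld2 read 8.08, 8.39 and 7.87 in culture, against 8.48, 8.30, 8.30, 8.31 and 8.36 in quiescent cells. Its culture mean lay below the quiescent mean and its other group means lay above it. Of 20 heat shock genes, 5 were higher (25%) and 4 lower (20%), and Cryab, the small chaperone αB-crystallin, was higher on every activated array (0.59 ± 0.08). Of 21 integrin and adhesion genes, 10 were higher (47.6%) and 2 lower (9.52%). Cd9, a tetraspanin, averaged 3.13 in culture, 6.36 in coculture, 7.01 after bile duct ligation and 7.96 after CCl4, against 2.18 ± 0.33 in quiescent cells (SD, n = 5), with no overlap. Cd151, another tetraspanin, lay the other way, at -0.76 ± 0.08, also with no overlap.

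**Figure D4:**
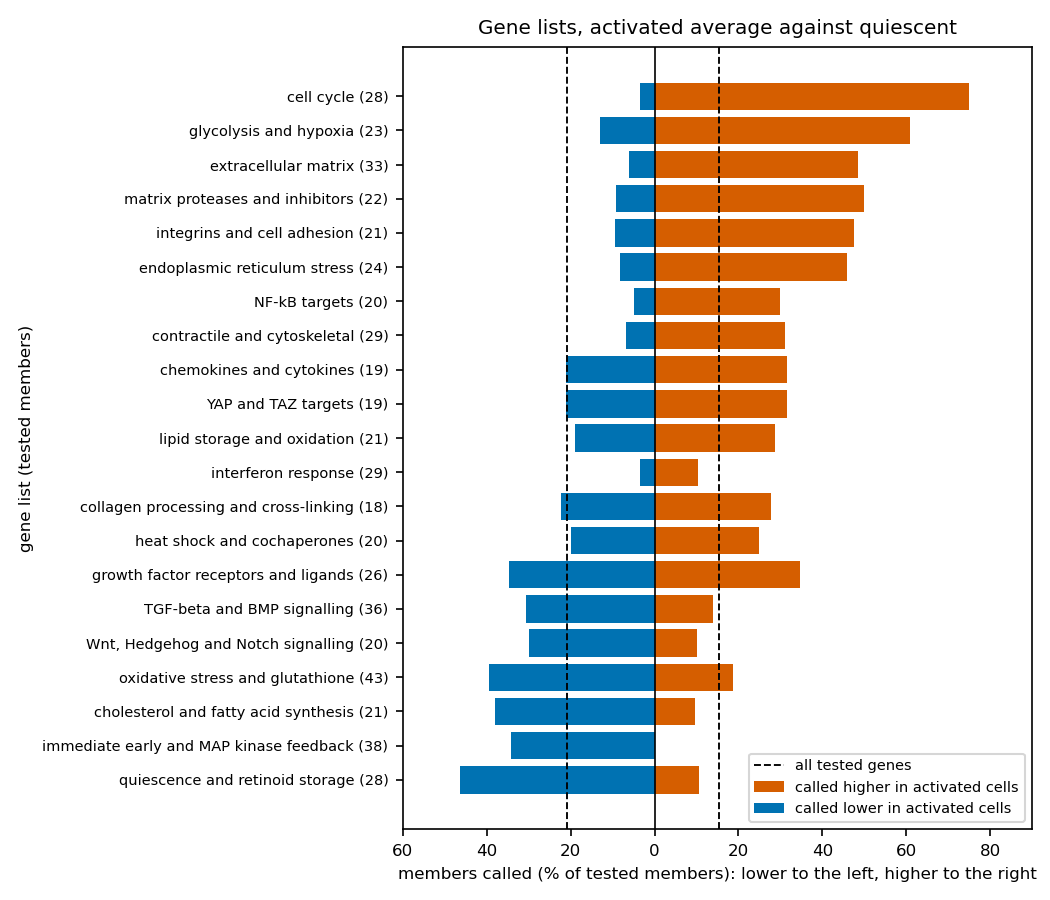
Share of the tested members of each of 21 gene lists called higher (right) or lower (left) in the activated average than in quiescent cells, in percent, with the number of tested members in brackets and dashed lines at the shares of all tested genes (15.4% and 20.9%). The cell cycle list reaches 75% to the right, and the quiescence list reaches 46.4% to the left.

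How alike the 4 routes were differed between genes. By the F test, 4165 of the 7823 genes (53.2%) differed among the activated groups, 118 of the 181 higher genes without overlap and 54 of the 153 lower ones. These counts describe genes chosen on the same arrays and test nothing. The median range of the 4 activated means was 1.20 for the higher and 0.51 for the lower genes, and 0.79 for all tested genes.

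Gnai1, the α subunit of an inhibitory G protein, combined a large change with nearly equal routes. It read 9.54, 9.50 and 9.37 in culture, 9.70 and 9.11 in coculture, 9.24, 9.44 and 9.42 after bile duct ligation, and 9.07, 9.48 and 9.41 after CCl4, against 7.26, 7.61, 7.92, 7.57 and 7.44 in quiescent cells. The 4 activated means lay within 0.15 of each other (F test, adjusted p = 0.881), all 11 arrays stood at least 1.15 above the quiescent ones, and the difference was 1.83 ± 0.12 (SE; adjusted p = 5.71e-08). The other genes with the smallest ranges changed less. Upward these were Exoc3 (exocyst), Stk4 (the Hippo kinase MST1), Srp14 (signal recognition particle), Rfwd3 (a ubiquitin ligase of DNA repair) and Derl2 (endoplasmic reticulum quality control), at 0.32 to 0.56. Downward they were Trappc10 (vesicle tethering), Mfn1 (mitochondrial fusion), Nucks1 (a chromatin protein), Dhx35 (an RNA helicase), Epb41l1 (membrane skeleton) and Slc26a2 (a sulfate transporter), at -0.27 to -0.85. Other Srp14 probe sets differed by 0.16 to 0.25 and overlapped. The calls of Exoc3, Mfn1 and Nucks1 were lost when all probe sets of a gene were averaged, and those of Exoc3, Rfwd3, Slc26a2 and Trappc10 with a replicate block. The Trappc10 call was also lost without quiescent 2, without 3 arrays together, with centred arrays, with no filter and with the activated arrays as 1 group.

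At the other end stood genes that were above quiescent cells on every activated array but by very unequal amounts. Ctla2b, a cysteine protease inhibitor with a near-identical copy that its probes may also bind, averaged 7.33 in coculture and 2.25 to 3.14 in the other routes, against 1.29 ± 0.10 in quiescent cells (SD, n = 5). Jam2, a junctional adhesion molecule, likewise averaged 6.92 in coculture and 2.69 to 3.20 elsewhere, against 1.65 ± 0.17. Only the coculture arrays of Jam2 reached log2 5, so it entered the test through that group. With the activated arrays as 1 group, the calls of Ctla2b and Jam2 were lost (adjusted p = 0.130 and 0.0866). S100a4, the calcium-binding protein also called FSP1, was highest after CCl4, at 9.09, with 4.79 to 5.82 in the other routes and 3.01 ± 0.49 in quiescent cells. Clic5, a chloride intracellular channel protein, was highest in culture, at 7.46, with 3.14 after bile duct ligation and 1.88 ± 0.12 in quiescent cells. For Ctla2b, the culture and CCl4 means lay near the floor, and neither route passed the test alone (adjusted p = 0.157 and 0.188).

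**Figure D5:**
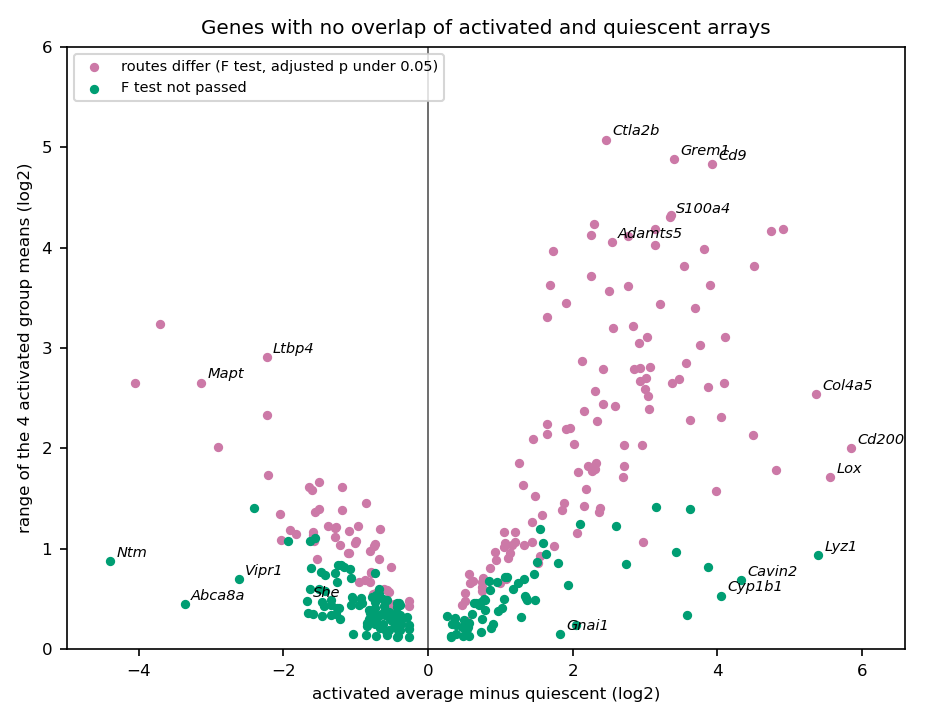
Difference of the activated average from quiescent cells (log2, x axis) against the range of the 4 activated group means (log2, y axis) for the 334 genes with no overlap. Pink points passed the F test among routes and green points did not. Gnai1 lies at 1.83 with a range of 0.15, while Ctla2b reaches a range of 5.08.

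Markers of other liver cells moved with some routes. Of 24 hepatocyte markers, 1 averaged at least log2 5 in culture and in coculture, 3 after bile duct ligation and 6 after CCl4, against 0 in quiescent cells. Their summed log2 level, which includes Serpina1b, was 9.82 to 10.64, 6.73 to 7.90, 8.56 to 9.80 and 9.17 to 11.87 in those routes, against 6.26 to 6.87 in quiescent cells. Albumin (Alb) averaged 2.46, 1.96, 8.25 and 9.33, against 2.75 in quiescent cells. The keratins Krt8 and Krt18 of epithelial cells averaged 6.70 and 7.27 after bile duct ligation and 7.78 and 8.54 after CCl4, while in culture, coculture and quiescent cells they lay between 1.89 and 2.25. Of 12 cholangiocyte and epithelial markers, 2 averaged at least log2 5 in each injury group, 1 in coculture, and 0 in culture and in quiescent cells. The part of such cells in the genes common to all routes was not tested. Serpina1b, a secreted protease inhibitor of hepatocytes, was itself without overlap, at 10.17, 5.98, 6.67 and 7.04 in the same order of routes, against 2.55 in quiescent cells. It was the 1 hepatocyte marker at log2 5 or above in culture and in coculture, and it made up most of the summed level in culture. Of 18 markers of mesothelial cells and portal fibroblasts, 0 averaged at least log2 5 in culture, 2 in coculture, 2 after bile duct ligation and 3 after CCl4, against 0 in quiescent cells. Dpt, dermatopontin of fibroblasts, averaged 7.08 after bile duct ligation and 7.97 after CCl4, against 2.61 in quiescent cells. The neutrophil marker S100a8 averaged 9.88 in coculture and 1.73 to 2.29 in the other routes, against 1.62 in quiescent cells. Of 10 neutrophil markers, it was the 1 at log2 5 or above in coculture, and 0 were in the other groups.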

How the data were processed

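The authors deposited log2 expression values for 45101 probe sets on 16 Affymetrix arrays, normalised with GCRMA per the submitters' processing notes, with a version not given in the sources used here. Of these probe sets, 34945 had 1 gene symbol in the platform annotation, 932 had several and 9160 had none. The probe set with the highest mean over all 16 arrays stood for each of 18193 genes, and a gene was tested if it reached log2 5 on at least 2 arrays, which left 7823. The 16 arrays entered 1 linear model with a mean per group (limma 3.58.1, R 4.3.3, eBayes with a trend), which left 11 residual degrees of freedom. The contrast was the average of the 4 activated means minus the quiescent mean, p-values were adjusted by the Benjamini-Hochberg method over all tested genes, and an F test compared the activated groups. The gap is the distance between the nearest activated and quiescent arrays.

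Tested on simulated data over 7823 genes, the average comparison called 89 of 100 genes changed by a log2 of 1 and 99 of 100 changed by a log2 of 2, with 6 false calls among 7623 unchanged genes. In the simulation, noise was normal and independent between arrays and genes, and each changed gene moved equally in every route. Its counts therefore do not give the number of false calls in these data, where routes differed. At most 409 values were identical between any 2 arrays. Deviations of same-numbered arrays from their group means correlated between -0.26 and 0.54 over 26 pairs (median -0.006). Those of differently numbered arrays correlated between -0.54 and 0.45 over 74 pairs (median 0.017). Replicate numbers were therefore not taken to pair arrays, although these values cannot exclude a pairing. Arrays have no read depth, and their number limits the precision.

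Named genes were those called without overlap with the 14 widest gaps in each direction, up to 4 members of each role list with the widest gaps (or up to 2 called members with the smallest adjusted p), a set of customary stellate cell genes, and the genes with the smallest and largest range of activated means. The members and lists were chosen with earlier results of these data known. Other genes and the motifs CCAAT and TTTGAA were chosen after their values were seen. CArG boxes were searched by that name, and all motifs on both strands. Alternatives covered the filter, probe set rule, array weights, centring, omitted groups and arrays, and a replicate block. The third coculture sample of the design text was not analysed here.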

Additional observations from a re-analysis of the deposited data

Results flagged for a closer look

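Reln on quiescent array 4 read 11.52, whereas the other 4 quiescent arrays lay between 12.07 and 12.26, and this distance put it apart from its group by Dixon's criterion. It was the 1 such case among the 96 named genes screened. Chance alone sets a value apart in about 1 in 20 groups.

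On the probe set used, Hgf, hepatocyte growth factor, moved in opposite directions in the animal models and in the dish. Other Hgf probe sets that reached log2 5 gave activated averages of -0.27 and -1.29 against quiescent cells, and their routes were not compared here. The values that follow are from the probe set used. The in vivo average of the ligated and CCl4 groups differed from quiescent cells by -1.31 and the dish average by 1.19. Their difference, in vivo minus dish, was -2.50 ± 0.31 (SE; adjusted p = 1.57e-05 by limma). The 6 arrays of the injury groups lay between 6.33 and 7.95, below the dish arrays at 9.22 to 10.70, with quiescent cells at 7.91 to 9.04.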

How the results depend on the processing

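The 96 named genes were refitted under 29 alternatives, except that a filter at log2 7 tested 79 of them and averaging probe sets tested 83. No called direction reversed among the values obtained, of which 2716 kept their direction and side of the threshold, 37 lost the call and 1, Ccn2 with array weights (0.52), gained it. Leaving out 1 array at a time gave 2493 to 2902 called genes (1083 to 1238 higher, 1377 to 1664 lower), 707 to 792 at least 2-fold, 340 to 450 without overlap (182 to 224 higher, 157 to 229 lower), 35 to 50 with a gap of at least 1, and 3580 to 4423 differing among routes. Fewer arrays leave fewer values that can overlap, but the count also differed with the group left out. The genes without overlap numbered 699 without the culture group (367 higher, 332 lower, 99 with a gap of at least 1, and 2056 by the F test). They numbered 568 without the ligated group (304 lower), 445 without the CCl4 group and 366 without the coculture group. Without quiescent 4, culture 3 and CCl4 3 they numbered 573 (274 higher, 299 lower, 63 with a gap of at least 1). Genes called and at least 2-fold numbered 444 with a filter at log2 7, which tests fewer genes, and 496 when a gene's probe sets were averaged. Treating the 11 activated arrays as 1 group called 909 genes (437 higher, 472 lower, 413 at least 2-fold), since differences between routes then count as spread. Centring each array called 1371 higher and 1411 lower, 49.3% higher against 42.5% as reported. A replicate block called 1934 genes (902 higher, 1032 lower). The alternatives that describe gene lists without some arrays, without the CCl4 group, or by in vivo and dish averages were chosen after seeing the data. Differences that start near log2 2 are limited by background.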

Other observations

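Several receptors, chosen after their values were seen, also had no overlap between activated and quiescent arrays. Tnfrsf1a, the main receptor of tumour necrosis factor, averaged 8.35 in culture, 8.33 in coculture, 8.49 after bile duct ligation and 8.37 after CCl4, against 9.42 ± 0.21 in quiescent cells (SD, n = 5), a nearly equal reduction in every route (-1.04 ± 0.17, SE). Lifr, the receptor of leukaemia inhibitory factor, differed by -1.34 ± 0.23, and Adra1b, an α1-adrenergic receptor, by -2.21 ± 0.26. In the other direction, Gpr39, a zinc-sensing receptor, differed by 2.98 ± 0.20, F2r, the thrombin receptor PAR1, by 1.08 ± 0.09, and Npr3, the clearance receptor of natriuretic peptides, by 2.42 ± 0.20. F2r was bright in both states, averaging 12.26 to 12.95 in the activated groups and 11.40 ± 0.16 in quiescent cells.

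Matrix genes outside the list moved both ways without overlap. Nid2, a basement membrane linker, differed by 3.37 ± 0.33 and Svep1, a large adhesion protein, by 2.91 ± 0.29, while Tnxb, tenascin X, differed by -3.71 ± 0.41 and Abi3bp by -4.06 ± 0.50. The transcription factor Prrx1 averaged 5.84, 7.70, 7.92 and 8.37 in culture, coculture, bile duct ligation and CCl4, against 4.41 ± 0.39 in quiescent cells. The circadian repressors Nr1d2 and Cry2 differed by -0.80 ± 0.10 and -1.07 ± 0.15. Fth1, ferritin heavy chain, changed little but evenly, averaging 12.43 to 12.88 in the activated groups, against 13.18 ± 0.06 in quiescent cells.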
